A study of Mus musculus with 16 samples.

Results

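Of 37 genes of sterol and fatty acid synthesis, taken by their symbols in the probe annotation, 33 had a probe set and were followed here among 19505 genes. Acat2, Srebf1, Soat1 and Scd2 were not analysed here. The genes fall into 6 of the mevalonate steps, 11 of the sterol steps, 3 regulators, 5 of sterol uptake and trafficking, and 8 of fatty acid synthesis and desaturation. Where a gene had several probe sets, the brightest one on average was taken.

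The arrays held RNA of bone marrow-derived macrophages (BMDM) in 4 groups of 4 biological replicates, namely Camkk2-/- TCM-BMDM, WT TCM-BMDM, Camkk2-/- RM-BMDM and WT RM-BMDM. Marrow came from female Camkk2 -/- mice, a whole-body knockout, or from Camkk2 +/+ (WT) mice, with bones of 16 mice per genotype, and no label says whether the cultures with one replicate number shared marrow. All cells grew for 5 days with 30% medium conditioned by L929, a mouse fibroblast line that secretes the macrophage growth factor CSF1. TCM cultures also received medium conditioned by E0771 mouse mammary tumor cells, at 20% by volume per the labels (the methods give a larger share), and RM cultures did not. CaMKK2, the product of Camkk2, is a calcium-dependent kinase that activates AMPK among other targets, and the study asked how its loss changes the macrophage program with and without tumor factors.

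Cells make cholesterol from acetyl-CoA through mevalonate, squalene and lanosterol, and they make fatty acids from the same precursor. When sterol in the endoplasmic reticulum is low, the escort protein SCAP carries the membrane-bound SREBP transcription factors to the Golgi, where proteolysis frees them to enter the nucleus and switch on the genes of both routes, while INSIG proteins and sterol hold the complex back. Macrophages also take up cholesterol as lipoproteins and cell debris, from which lysosomal acid lipase and the NPC proteins release it.

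SREBPs bind promoters beside helper factors, namely NF-Y at CCAAT and Sp1 at GC-rich boxes. In the RefSeq promoter windows (GRCm38.p6, 250 bases before to 50 after a start), 26 of the 33 genes had an entry, with 30 windows in all because Dhcr7, Pmvk and Scap had several. A gene was counted if any of its windows held the letters, read on both strands. CCAAT was found for 22 of the 26 genes (84.6%), against 43.2% of the 8758 genes with an entry and a mean signal above background and 41.1% of all 27025 genes with an entry. By window it was in 22 of the 30 (73.3%), against 37.4% of all 32851 windows. The genes without it in any window were Scap, Acaca, Elovl6 and Fads2. GGGCGG, the GC box, was found for 22 genes (84.6%, against 66.3% of genes above background and 38.2% of all genes), and in 24 of the 30 windows (80%, against 35.7% of all windows). CACGTG, the E-box, was found for 5 genes (19.2%, against 11.6% and 8.09% of the same gene sets), namely Hsd17b7, Sc5d, Dhcr7, Insig1 and Scap, and in 6 windows (20%, against 7.15%). TCACNCCAC, a form of the sterol regulatory element, was found for 1 gene (3.85%, against 1.38% and 1.44%), Hmgcs1, 137 bases before the start, and so in 1 window (3.33%, against 1.24%). These matches describe letters in a window and not binding.
The windows of 4 genes that were lower in Camkk2-/- TCM-BMDM than in WT TCM-BMDM, and of Npc2, which was higher, are shown to let the spacing of the boxes be seen. Capitals mark CCAAT, its reverse complement ATTGG, and TCACNCCAC. In Fasn a CCAAT and an ATTGG overlap.
Hmgcs1, chr13:119690101-119690400, plus strand: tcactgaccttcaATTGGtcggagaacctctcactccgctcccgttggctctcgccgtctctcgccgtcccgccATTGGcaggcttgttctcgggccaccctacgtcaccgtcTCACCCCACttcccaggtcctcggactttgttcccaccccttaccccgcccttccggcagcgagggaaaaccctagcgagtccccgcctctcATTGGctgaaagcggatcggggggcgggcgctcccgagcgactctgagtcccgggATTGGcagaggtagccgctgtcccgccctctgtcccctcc
Hsd17b7, chr1:169969156-169969455, minus strand: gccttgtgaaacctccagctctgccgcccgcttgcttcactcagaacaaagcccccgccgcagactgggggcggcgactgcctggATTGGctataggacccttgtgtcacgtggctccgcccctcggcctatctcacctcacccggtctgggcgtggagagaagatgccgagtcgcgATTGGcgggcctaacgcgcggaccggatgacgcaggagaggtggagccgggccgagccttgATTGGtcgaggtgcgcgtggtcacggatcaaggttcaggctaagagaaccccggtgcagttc
Cyp51, chr5:4104648-4104947, minus strand: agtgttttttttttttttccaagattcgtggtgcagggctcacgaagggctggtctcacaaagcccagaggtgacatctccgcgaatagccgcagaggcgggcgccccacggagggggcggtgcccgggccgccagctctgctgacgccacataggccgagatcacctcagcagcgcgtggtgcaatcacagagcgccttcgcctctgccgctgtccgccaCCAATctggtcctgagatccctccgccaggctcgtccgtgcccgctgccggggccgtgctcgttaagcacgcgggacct
Fasn, chr11:120824498-120824797, minus strand: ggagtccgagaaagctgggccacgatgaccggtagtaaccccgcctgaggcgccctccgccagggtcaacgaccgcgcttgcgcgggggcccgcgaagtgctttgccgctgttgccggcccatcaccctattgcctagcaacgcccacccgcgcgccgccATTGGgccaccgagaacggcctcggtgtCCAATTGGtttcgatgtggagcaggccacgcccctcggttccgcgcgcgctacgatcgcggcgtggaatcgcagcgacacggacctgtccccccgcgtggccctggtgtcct
Npc2, chr12:84773063-84773362, minus strand: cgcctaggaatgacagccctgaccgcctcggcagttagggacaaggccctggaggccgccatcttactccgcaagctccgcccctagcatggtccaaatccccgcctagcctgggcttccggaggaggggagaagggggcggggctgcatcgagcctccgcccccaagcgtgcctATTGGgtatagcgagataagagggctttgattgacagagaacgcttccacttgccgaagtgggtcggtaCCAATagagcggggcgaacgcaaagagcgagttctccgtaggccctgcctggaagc

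Values are log2 signals as deposited, and differences are log2 fold changes from limma fitted to all 19505 genes, with Benjamini-Hochberg adjusted p-values over all of them. A gene is called at an adjusted p under 0.05. No depth exists for arrays, and the number of arrays limits the precision. Signals between genes are not compared, because probe sets differ in response. All 33 genes had a mean above background, the median of 5.37 over 23 probe sets of sequence foreign to the mouse, in each of the 4 groups. The means of these 23 probe sets ran from 2.48 to 6.82. The group means of Mvk in all 4 groups, and of Fasn in Camkk2-/- TCM-BMDM (6.34), lay within that range. Camkk2 itself had 7.94, 7.29, 8.15 and 7.24 in Camkk2-/- TCM-BMDM, against 9.61, 9.59, 9.14 and 9.68 in WT TCM-BMDM. In RM it had 7.20, 7.43, 6.07 and 6.26 in Camkk2-/- BMDM, against 9.83, 9.58, 9.82 and 9.11 in WT BMDM.

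Of 6 macrophage genes, Csf1r, Itgam, Adgre1 (F4/80), Fcgr1 and Lyz2 were at 14.97 or more in every array, and Mertk lay between 9.72 and 12.50. Epcam, Krt8 and Krt18, markers of tumor epithelium, were at 5.09 or less. The macrophage genes were not level across the groups. Adgre1 was at 15.16, 15.39, 15.18 and 14.97 in Camkk2-/- TCM-BMDM, against 15.95, 15.72, 15.79 and 15.56 in WT TCM-BMDM, lower in every Camkk2-/- array (−0.58, adjusted p = 0.0292), whereas Fcgr1 (0.67, adjusted p = 0.0606) and Mertk (0.74, adjusted p = 0.346) had values above 0 without a call. In Camkk2-/- BMDM, Adgre1 (−1.15, adjusted p = 2.12e-05), Csf1r (−0.81, adjusted p = 0.00179) and Itgam (−0.54, adjusted p = 0.0174) were lower and Fcgr1 (1.53, adjusted p = 1.74e-05) was higher in TCM than in RM, and in WT BMDM Fcgr1 was higher (1.22, adjusted p = 0.0011).
Markers of other myeloid cells moved with the groups as well. Itgax (CD11c), which marks dendritic cells and is also made by macrophages, ranged over 7.46 to 9.36 in the 4 Camkk2-/- TCM arrays, against 9.90 to 10.57 in the 4 WT TCM arrays (−1.47, adjusted p = 0.00476). In RM it ranged over 11.10 to 11.59 in Camkk2-/- BMDM, against 10.25 to 10.85 in WT BMDM (0.81, adjusted p = 0.355). Its mean was thus lowest in Camkk2-/- TCM-BMDM, as was that of 24 of the 33 genes and of 29.8% of all genes. The macrophage genes Adgre1, Itgam, Csf1r and Lyz2 also had their lowest mean there, and Fcgr1 and Mertk their highest. Itgax was lower in Camkk2-/- TCM-BMDM than in Camkk2-/- RM-BMDM as well (−2.66, adjusted p = 2.65e-06). The other 3 dendritic genes (Flt3, Zbtb46, Cd209a) had means below background in every group. Averaged per array, with the 16-array mean of a gene set to 0, 11 neutrophil genes lay at 0.58 to 1.80 in Camkk2-/- TCM-BMDM, −0.27 to 0.89 in WT TCM-BMDM, −1.24 to −0.18 in Camkk2-/- RM-BMDM and −1.56 to −0.63 in WT RM-BMDM. The 3 genes of inflammatory monocytes (Ly6c2, Plac8, Ccr2) lay at 2.13 to 3.02, −0.73 to 1.37, −1.90 to −0.66 and −3.08 to −1.45 in the same groups. Between Camkk2-/- and WT TCM-BMDM, 2 of the 11 and 1 of the 3 were called higher, against 2.7% of all genes. Camp, among the 11 neutrophil genes, had means below background in every group. On the same scale and in the same order of groups, the 6 macrophage genes lay at −0.08 to 0.13, −0.01 to 0.06, −0.01 to 0.30 and −0.45 to −0.04, and the 4 dendritic genes at −0.35 to −0.07, −0.13 to 0.16, −0.22 to 0.57 and −0.47 to 0.23. The part of any of these markers in the results below was not tested. In bulk RNA, fewer cells of a type and less RNA per cell cannot be told apart. WT TCM replicates 1 and 3 lay farther from their group mean over all genes (SD 0.325 and 0.355) than the other arrays (0.22 to 0.301).

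**Figure D1:**
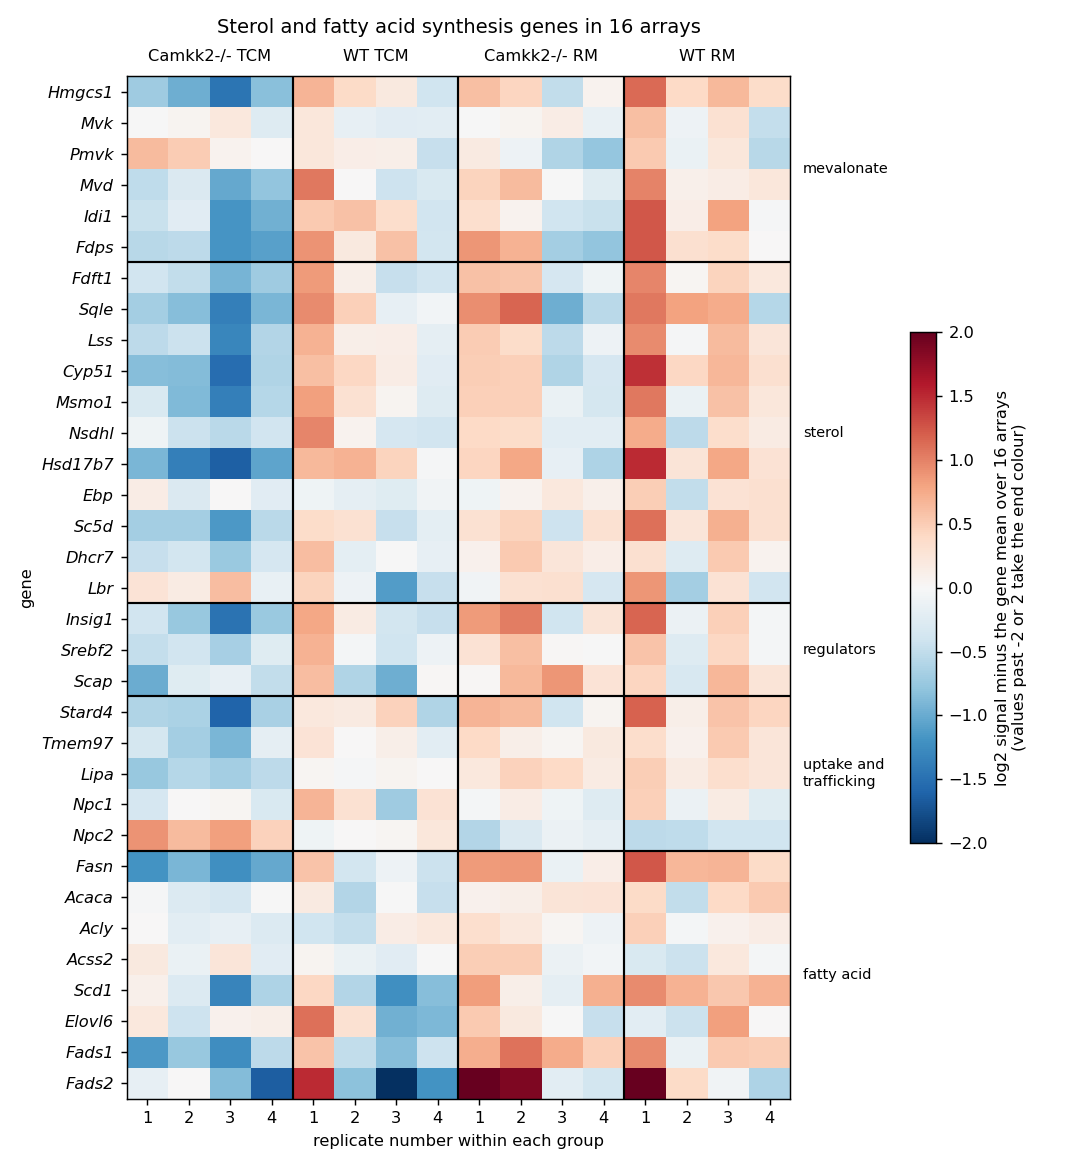
Log2 signal of the 33 genes (rows, by step) in the 16 arrays (columns, by group and replicate), as the difference from each gene's mean over all arrays (color, clipped at −2 and 2). The group mean was lowest in Camkk2-/- TCM-BMDM for 24 genes, and WT RM replicate 1 and WT TCM replicate 1 were high for most sterol genes.

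Across the 4 groups, the group mean was lowest in Camkk2-/- TCM-BMDM for 24 of the 33 genes, and for 13 of the 17 mevalonate and sterol genes, against 29.8% of all genes. It was highest in WT RM-BMDM for 20 of 33, and for 14 of the 17, against 19.4% of all genes. The 9 genes with their lowest mean elsewhere were Mvk, Pmvk, Ebp, Lbr, Npc2, Acaca, Acss2, Scd1 and Elovl6.

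The loss of Camkk2 was first examined in TCM, where 6 genes were lower and 1 was higher in Camkk2-/- TCM-BMDM than in WT TCM-BMDM. They were Hmgcs1 of the mevalonate steps, Cyp51, Msmo1 and Hsd17b7 of the sterol steps, Lipa of the lysosome and Fasn of fatty acid synthesis, with Npc2 higher. Of all genes, 1.79% were called lower and 2.7% higher. The median log2 fold change of the 33 genes was −0.58, and 24 of the 33 values were below 0. Over all genes the median was −0.02. In 11 of the 33 (33.3%) every Camkk2-/- array was lower than every WT array, against 5.15% of all genes.

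Hmgcs1 encodes the cytosolic synthase that makes HMG-CoA, the substrate for mevalonate. Its log2 signal was 12.30, 12.03, 11.54 and 12.18 in Camkk2-/- TCM-BMDM, against 13.69, 13.39, 13.20 and 12.61 in WT TCM-BMDM. The groups did not overlap, with Camkk2-/- replicate 3 the lowest and WT replicate 4 nearest to the Camkk2-/- arrays. The log2 fold change was −1.21 (SE 0.26, adjusted p = 0.00711), and the call held without any single array. In RM the values were 13.61, 13.43, 12.51 and 13.08 in Camkk2-/- BMDM, against 14.14, 13.41, 13.66 and 13.37 in WT BMDM, and the groups overlapped (−0.49, adjusted p = 0.678).
Of the other mevalonate genes, Fdps, which makes farnesyl diphosphate, had the largest fold change without a call (−1.16, adjusted p = 0.0756), at 7.20, 7.24, 6.57 and 6.67 in Camkk2-/- TCM-BMDM against 8.65, 7.95, 8.35 and 7.38 in WT TCM-BMDM. Each of its Camkk2-/- arrays was lower than each WT array, with WT replicate 4 near the Camkk2-/- ones. Camkk2-/- TCM replicates 3 and 4 of Fdps were below 6.82, the highest mean of a background probe set. Fdps was called in a fit to the 8 TCM arrays alone (adjusted p = 0.0274) and without WT TCM replicate 4 (0.0401). Idi1, an isomerase, gave −0.98 (adjusted p = 0.058), and Mvd, a decarboxylase, −0.73 (adjusted p = 0.192). The kinases Mvk (0.09) and Pmvk (0.30), which act between Hmgcs1 and Mvd, had values above 0 and 95% confidence intervals of −0.32 to 0.51 and −0.22 to 0.81.

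Hsd17b7 had the largest log2 fold change of the 33 genes in this comparison. It encodes the ketoreductase of the complex that strips methyl groups from the sterol ring. Its log2 signal was 7.84, 7.38, 7.12 and 7.69 in Camkk2-/- TCM-BMDM, against 9.40, 9.45, 9.21 and 8.73 in WT TCM-BMDM, so that the groups lay well apart. The difference was −1.69 (SE 0.29, adjusted p = 0.00125), a signal 0.31 times that of WT, and it held without any single array. In RM the signal was 9.18, 9.53, 8.59 and 8.14 in Camkk2-/- BMDM, against 10.24, 9.01, 9.52 and 9.04 in WT BMDM, with overlap (−0.60, adjusted p = 0.621).
Cyp51, the lanosterol demethylase, was at 10.35, 10.34, 9.68 and 10.60 in Camkk2-/- TCM-BMDM, against 11.81, 11.62, 11.36 and 10.98 in WT TCM-BMDM. All Camkk2-/- arrays were lower (−1.20, SE 0.28, adjusted p = 0.0159). The call was lost without Camkk2-/- TCM replicate 3 (adjusted p = 0.0749) or WT TCM replicate 1 (0.0511).
Msmo1, the methylsterol monooxygenase that acts beside Hsd17b7, was at 10.14, 9.56, 9.08 and 9.87 in Camkk2-/- TCM-BMDM, against 11.27, 10.76, 10.50 and 10.19 in WT TCM-BMDM. The lowest WT array, replicate 4, was just above the highest Camkk2-/- array. The difference of −1.02 (SE 0.28, adjusted p = 0.0452) had the highest adjusted p of the 7 calls. It was lost without Camkk2-/- TCM replicate 2, 3 or 4, WT TCM replicate 1, 2 or 3, Camkk2-/- RM replicate 3, or WT RM replicate 3 or 4 (adjusted p of up to 0.177), and in a fit to the 8 TCM arrays (0.0515). In RM it was at 10.92, 10.93, 10.31 and 10.09 in Camkk2-/- BMDM, against 11.50, 10.31, 11.03 and 10.68 in WT BMDM, with overlap (−0.32, adjusted p = 0.895).
Sqle, squalene epoxidase, had a larger mean difference than Msmo1 but was not called in the fit to all 16 arrays. It was at 8.31, 8.14, 7.62 and 8.08 in Camkk2-/- TCM-BMDM, against 9.94, 9.47, 8.82 and 8.93 in WT TCM-BMDM, without overlap (−1.25, adjusted p = 0.102). In the fit to the 8 TCM arrays it was called (adjusted p = 0.0132). Its SD was 0.29 in Camkk2-/- TCM-BMDM and 0.52 in WT TCM-BMDM, and 1.06 in Camkk2-/- RM-BMDM and 0.73 in WT RM-BMDM. Lss, lanosterol synthase (−0.90, adjusted p = 0.0539), Sc5d, a sterol desaturase (−0.76, adjusted p = 0.0766), and Dhcr7, a late reductase (−0.54, adjusted p = 0.157), were likewise lower in every Camkk2-/- array without a call. Without 1 array, some genes gained a call, namely Idi1 (without Camkk2-/- TCM replicate 2, WT TCM replicate 4 or WT RM replicate 1 or 4), Lss (WT TCM replicate 4, Camkk2-/- RM replicate 1 or 3, or WT RM replicate 1), Sc5d (WT TCM replicate 3), Stard4 (WT TCM replicate 4) and Tmem97 (Camkk2-/- TCM replicate 4), at adjusted p of 0.0226 to 0.0488. Fdft1, squalene synthase, and Nsdhl, a dehydrogenase of the demethylation complex, gave −0.66 and −0.44. Ebp, a sterol isomerase, at 0.05 (interval −0.33 to 0.44), and Lbr, a sterol reductase that is also a lamin receptor of the nuclear envelope, at 0.53 (−0.13 to 1.19), were the sterol genes with values above 0.

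The 3 regulators, Insig1, Srebf2 and Scap, were not called between genotypes in TCM, with values of −0.87, −0.48 and −0.24 (adjusted p of 0.185 to 0.8). Srebf2 encodes the SREBP that mainly drives sterol genes, and its lowest WT array, at 13.84, lay below the highest Camkk2-/- array, at 14.00.

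**Figure D2:**
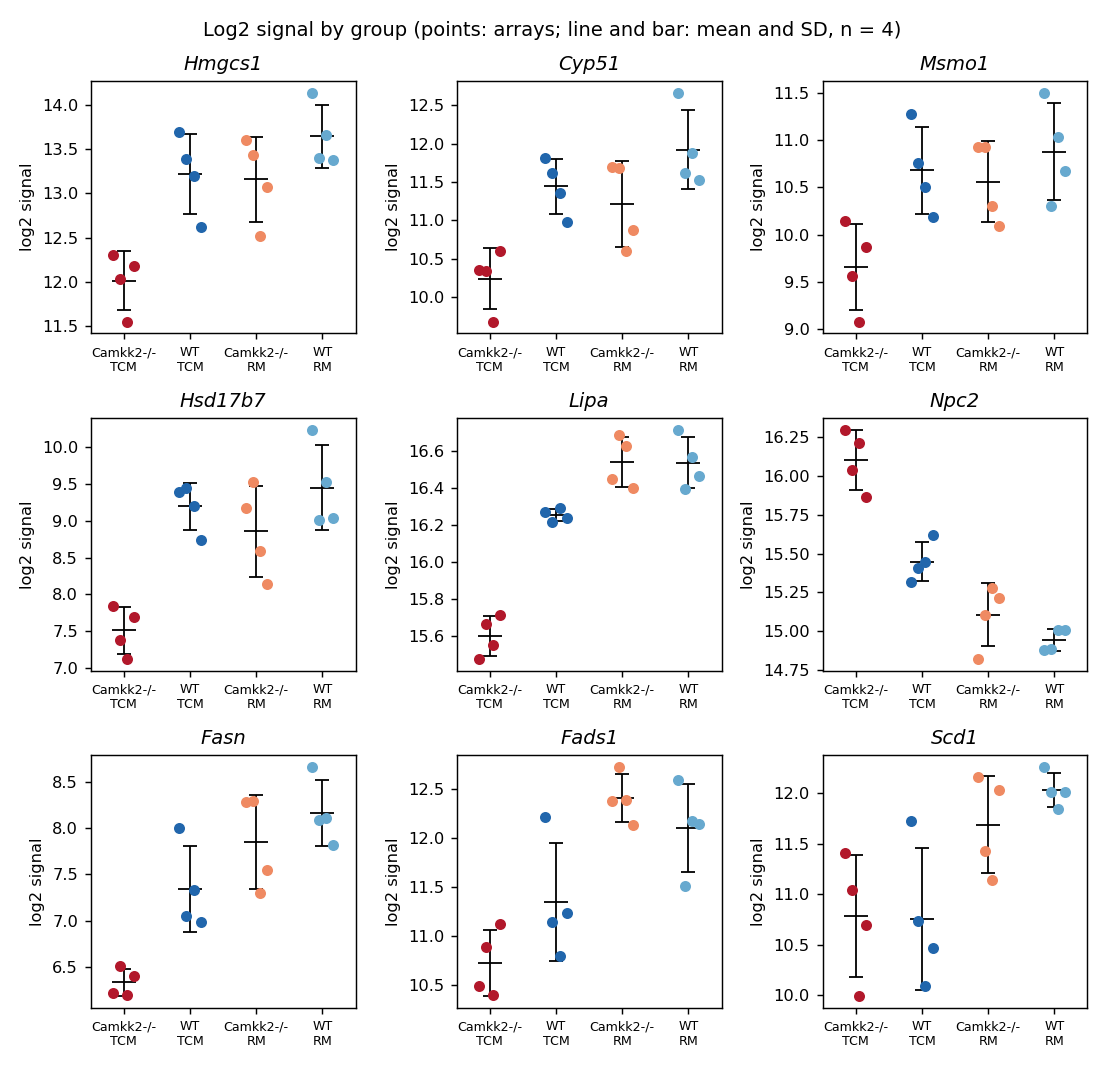
Log2 signal of 9 genes in each array (points) with the mean and SD of 4 arrays, for Camkk2-/- TCM, WT TCM, Camkk2-/- RM and WT RM from left to right; the vertical axes differ and do not start at 0. For Hmgcs1, Cyp51, Msmo1, Hsd17b7, Lipa and Fasn all Camkk2-/- TCM arrays lay below all WT TCM arrays, and for Npc2 above them.

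Among the uptake and trafficking genes, Lipa and Npc2 moved in opposite directions, both with little spread. Lipa encodes lysosomal acid lipase, which frees cholesterol from its esters. It was at 15.47, 15.66, 15.55 and 15.71 in Camkk2-/- TCM-BMDM, against 16.27, 16.22, 16.29 and 16.24 in WT TCM-BMDM. The groups were well apart, and the difference of −0.66 (SE 0.14, adjusted p = 0.00607) held without any single array. In RM the genotypes overlapped, at 16.45, 16.69, 16.63 and 16.40 in Camkk2-/- BMDM, against 16.72, 16.40, 16.57 and 16.47 in WT BMDM, with a difference of 0.00 and an interval of −0.28 to 0.29.
Npc2 encodes the soluble lysosomal protein that hands cholesterol to the membrane protein NPC1. Its signal was 16.30, 16.04, 16.21 and 15.86 in Camkk2-/- TCM-BMDM, against 15.32, 15.41, 15.44 and 15.62 in WT TCM-BMDM, higher in every Camkk2-/- array (0.66, SE 0.15, adjusted p = 0.0121). Without Camkk2-/- TCM replicate 1 the adjusted p was 0.0517. In RM it was 14.82, 15.11, 15.28 and 15.21 in Camkk2-/- BMDM, against 14.88, 14.89, 15.01 and 15.00 in WT BMDM, with overlap (0.16, adjusted p = 0.902). Npc1 gave −0.29 in TCM (−0.78 to 0.20), Stard4, a sterol transfer protein, −0.93 (adjusted p = 0.0818), and Tmem97, an endoplasmic reticulum membrane protein of sterol handling, −0.58 (adjusted p = 0.0656).

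Of the 8 fatty acid genes, Fasn, the fatty acid synthase, was called. It was at 6.22, 6.52, 6.21 and 6.40 in Camkk2-/- TCM-BMDM, against 8.00, 7.05, 7.33 and 6.99 in WT TCM-BMDM. The Camkk2-/- arrays lay within a narrow band below all WT arrays, of which replicate 1 was the highest. This band was below 6.82, the highest mean of a background probe set, so these signals are near the floor. The difference was −1.01 (SE 0.25, adjusted p = 0.0212). The call was lost without Camkk2-/- TCM replicate 1 or 3 or WT TCM replicate 1 or 3 (adjusted p of 0.0502 to 0.0757). The other 7 were not called. Acaca (acetyl-CoA carboxylase), Acly (ATP citrate lyase), Acss2 (acetyl-CoA synthetase), Scd1 (stearoyl-CoA desaturase), Elovl6 (an elongase) and Fads2 (a desaturase of polyunsaturated fatty acids) had values between −0.03 and 0.11, and Fads1, the partner of Fads2, gave −0.62 (adjusted p = 0.252). For Acly the interval was −0.41 to 0.34, whereas for Fads2 it was −1.47 to 1.41.

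Without WT TCM replicates 1 and 3, an omission chosen after the values were seen, 1 of the 7 calls in TCM was left, Hsd17b7 (adjusted p = 0.0321). Hmgcs1 (adjusted p = 0.141), Cyp51 (0.188), Msmo1 (0.348), Lipa (0.0811), Fasn (0.322) and Npc2 (0.154) lost theirs, with all 6 fold changes in the same direction and the median of the 33 genes at −0.44.

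**Figure D3:**
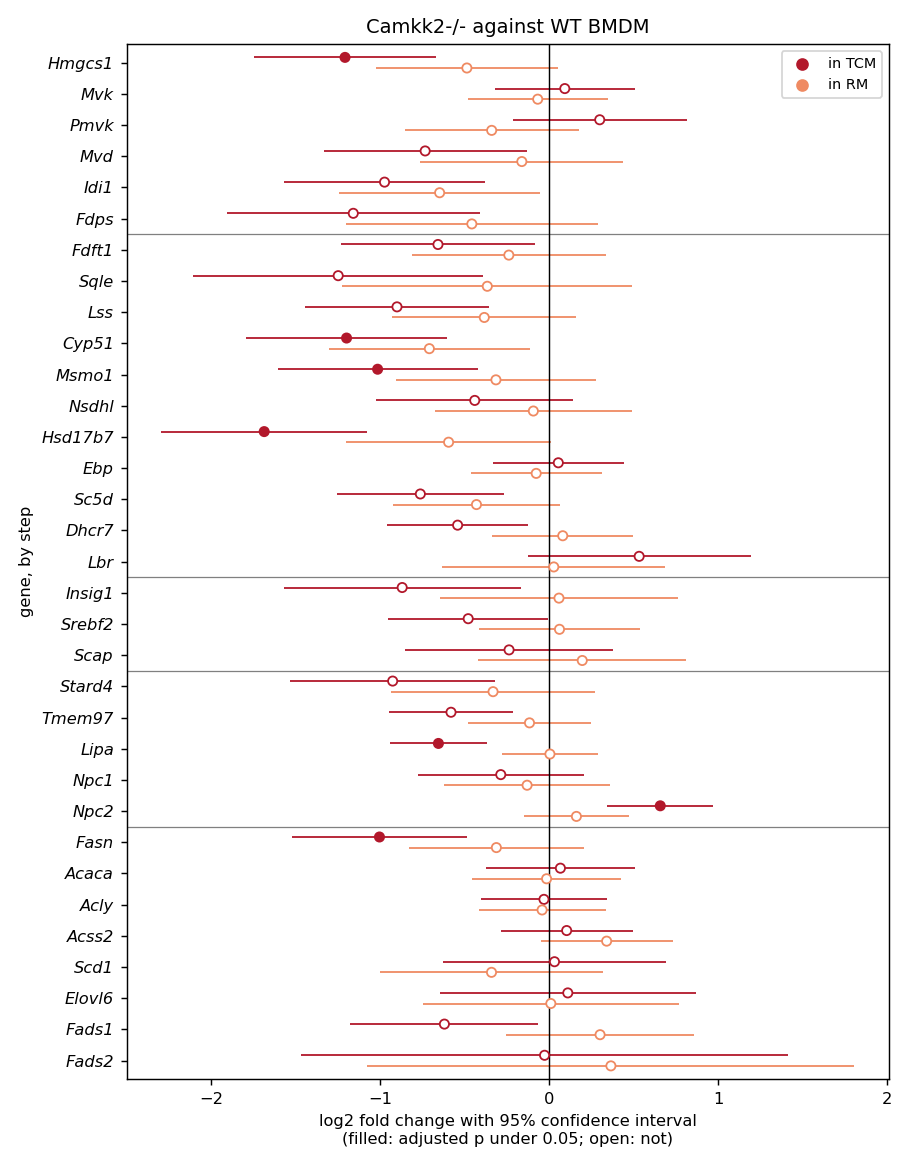
Log2 fold change of Camkk2-/- over WT BMDM with its 95% confidence interval, for each of the 33 genes by step, in TCM (dark) and in RM (light); filled points had an adjusted p under 0.05. In TCM 6 genes were called lower and 1 higher, and in RM none was called.

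In RM, the same comparison of genotypes gave no call among the 33 genes in limma (0 lower and 0 higher, and 2 lower and 0 higher at an unadjusted p under 0.05). Over all 19505 genes 0.292% were called lower and 0.446% higher, and at an unadjusted p under 0.05, 660 were lower and 941 higher. The median was −0.12, against 0.02 over all genes, and 22 of 33 values were below 0, among them 15 of the 17 mevalonate and sterol genes. No gene had every Camkk2-/- array below every WT array, against 1.72% of all genes. The largest values were those of Cyp51, at 11.69, 11.68, 10.60 and 10.87 in Camkk2-/- RM-BMDM, against 12.67, 11.62, 11.87 and 11.53 in WT RM-BMDM (−0.71, adjusted p = 0.459, interval −1.30 to −0.12), and Idi1 (−0.65, adjusted p = 0.545, interval −1.25 to −0.05). The 3 regulators lay between 0.06 and 0.20.

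**Figure D4:**
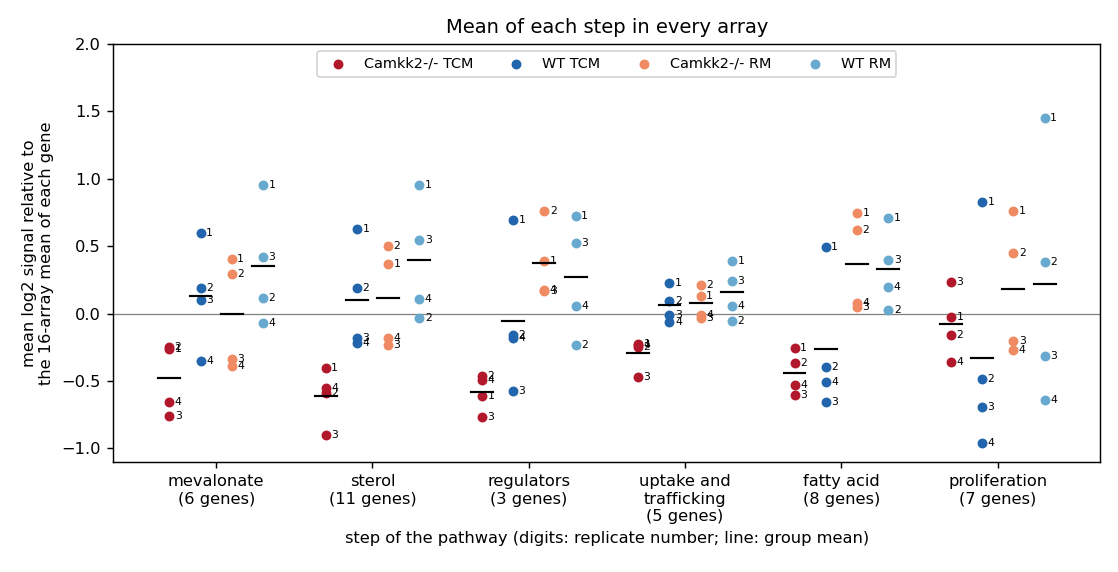
Mean of the genes of each step, and of 7 proliferation genes, in every array (vertical axis, log2 units, with each gene's 16-array mean set to 0); digits are replicate numbers and lines are group means. Within the mevalonate and sterol steps the Camkk2-/- TCM arrays lay below 0, and replicate 1 was the highest array of WT TCM and of WT RM.

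Replicates within a group differed for the pathway as a whole. Averaged over the 17 mevalonate and sterol genes, with the 16-array mean of a gene set to 0, the arrays lay at −0.36, −0.47, −0.85 and −0.59 in Camkk2-/- TCM-BMDM and 0.62, 0.19, −0.08 and −0.27 in WT TCM-BMDM. In RM they lay at 0.38, 0.43, −0.27 and −0.26 in Camkk2-/- BMDM and 0.96, 0.02, 0.50 and 0.05 in WT BMDM. Each Camkk2-/- TCM array was below each of the other 12, and Camkk2-/- RM replicates 1 and 2 stood above replicates 3 and 4. Of the 17, Sqle showed the widest such gap, at 9.91, 10.16, 8.01 and 8.45 in Camkk2-/- RM-BMDM. The mean of 7 proliferation genes also varied among replicates, at −0.02, −0.16, 0.23 and −0.36 in Camkk2-/- TCM-BMDM, 0.83, −0.48, −0.69 and −0.96 in WT TCM-BMDM, 0.76, 0.45, −0.20 and −0.27 in Camkk2-/- RM-BMDM and 1.45, 0.38, −0.31 and −0.64 in WT RM-BMDM. Replicate 1 was the highest array for both means in WT TCM and in WT RM. In Camkk2-/- TCM-BMDM, replicate 3 was the highest for the proliferation genes (0.23) and the lowest for the mevalonate and sterol genes (−0.85). The part of proliferation in the pathway values was not tested.

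TCM was then compared with RM within each genotype. The Camkk2-/- TCM arrays also stand in the comparison with WT TCM-BMDM, so that the calls of both share 4 arrays and are no independent evidence of each other. In Camkk2-/- BMDM, 13 genes were lower and 1 was higher in TCM. They were Hmgcs1, 5 sterol genes (Cyp51, Msmo1, Hsd17b7, Sc5d, Dhcr7), the regulators Insig1 and Scap, Stard4, Tmem97 and Lipa, and the fatty acid genes Fasn and Fads1, with Npc2 higher. Of all genes, 5.37% were called lower and 6.13% higher. The median of the 33 was −0.81, against 0.01 over all genes, and 30 of 33 values were below 0. In 15 of the 33 (45.5%) every TCM array was lower than every RM array, against 9.23% of all genes. The neutrophil and monocyte genes given above were higher in these TCM arrays, with 6 of 11 and 2 of 3 called, and Itgax and 3 of the 6 macrophage genes were lower. Their part was not tested.

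Of the genes called, Fads1 and Fasn had the largest fold changes. Fads1, a desaturase that makes arachidonic acid, was at 10.49, 10.88, 10.40 and 11.12 in Camkk2-/- TCM-BMDM, against 12.37, 12.72, 12.38 and 12.13 in Camkk2-/- RM-BMDM. The groups lay well apart, and the difference was −1.68 (SE 0.27, adjusted p = 0.000171). Fasn was at 8.28, 8.29, 7.30 and 7.55 in Camkk2-/- RM-BMDM, where replicates 1 and 2 were higher than 3 and 4, and its TCM arrays given above, which are near the floor, were all lower (−1.52, SE 0.25, adjusted p = 0.000239). Fads2 (−1.51, adjusted p = 0.186) and Sqle (−1.09, adjusted p = 0.098) had large values without a call, with Fads2 at 10.69, 10.86, 9.99 and 9.20 in TCM against 12.93, 12.71, 10.63 and 10.49 in RM. RM replicates 3 and 4 overlapped the TCM arrays for Fads2, and RM replicate 3 did for Sqle.
Insig1, the sterol-responsive brake on SCAP and a SREBP target itself, was at 11.19, 10.81, 10.10 and 10.82 in Camkk2-/- TCM-BMDM, against 12.42, 12.58, 11.16 and 11.83 in Camkk2-/- RM-BMDM. TCM replicate 1 overlapped RM replicate 3, and the difference was −1.27 (SE 0.34, adjusted p = 0.0159). Scap was at 8.93, 9.68, 9.75 and 9.42 in Camkk2-/- TCM-BMDM, against 9.94, 10.57, 10.80 and 10.19 in Camkk2-/- RM-BMDM, where every RM array was higher (−0.93, SE 0.30, adjusted p = 0.047). Srebf2 was lower in every TCM array but was not called (−0.67, adjusted p = 0.0618).
Stard4 was at 8.67, 8.63, 7.66 and 8.62 in Camkk2-/- TCM-BMDM, against 9.94, 9.89, 8.87 and 9.31 in Camkk2-/- RM-BMDM, without overlap, and TCM replicate 3 was far below the others (−1.11, SE 0.29, adjusted p = 0.0152). Tmem97 was at 9.88, 9.56, 9.32 and 10.07 in Camkk2-/- TCM-BMDM, against 10.64, 10.36, 10.28 and 10.43 in Camkk2-/- RM-BMDM, also without overlap (−0.72, SE 0.17, adjusted p = 0.00898). Lipa and Npc2 had the smallest adjusted p-values of the set, with −0.94 (adjusted p = 5.78e-05) for Lipa and 1.00 (adjusted p = 8.95e-05) for Npc2. The signal of Npc2 was 2 times as high in TCM.
Of the sterol genes, Sc5d was at 11.75, 11.74, 11.27 and 11.88 in Camkk2-/- TCM-BMDM, against 12.73, 12.87, 12.00 and 12.73 in Camkk2-/- RM-BMDM, where replicate 3 was the lowest and still above the TCM arrays (−0.92, SE 0.24, adjusted p = 0.013). Dhcr7 was at 8.41, 8.51, 8.13 and 8.54 in Camkk2-/- TCM-BMDM, against 8.96, 9.40, 9.12 and 9.01 in Camkk2-/- RM-BMDM, without overlap (−0.73, SE 0.20, adjusted p = 0.0202). Hsd17b7 and Hmgcs1 gave −1.35 (SE 0.29, adjusted p = 0.00341) and −1.15 (SE 0.26, adjusted p = 0.00466). Cyp51 gave −0.97 (SE 0.28, adjusted p = 0.0302) without overlap, and Msmo1 −0.90 (SE 0.28, adjusted p = 0.0446), with 1 RM array below the highest TCM array. Pmvk was the mevalonate gene with a value above 0 (0.63, adjusted p = 0.116).
Without Camkk2-/- TCM replicate 3 the number of calls was 7, and without Camkk2-/- RM replicate 2 it was 8. Hmgcs1, Hsd17b7, Tmem97, Lipa, Npc2, Fasn and Fads1 kept their calls without any single array, and the other 7 lost theirs without at least 1. Leaving out Camkk2-/- TCM replicate 3 ended the calls of Cyp51 (adjusted p = 0.121), Msmo1 (0.166), Sc5d (0.0581), Dhcr7 (0.0773), Insig1 (0.0704), Scap (0.0554) and Stard4 (0.0718). Leaving out Camkk2-/- RM replicate 2 ended those of Cyp51 (adjusted p = 0.0973), Msmo1 (0.121), Dhcr7 (0.0672), Insig1 (0.0599), Scap (0.105) and Stard4 (0.0531), and replicate 1 those of Cyp51 (0.101), Msmo1 (0.125), Insig1 (0.0549) and Stard4 (0.056). Cyp51 also lost its call without Camkk2-/- TCM replicate 1 or 2. Msmo1 did so without Camkk2-/- TCM replicate 2 or 4, Camkk2-/- RM replicate 3, WT TCM replicate 2 or WT RM replicate 3. Scap did so without Camkk2-/- TCM replicate 1, 2 or 4, Camkk2-/- RM replicate 3 or 4, WT TCM replicate 4 or WT RM replicate 1 or 4. In a fit to the 8 Camkk2-/- arrays alone, Mvd (adjusted p = 0.0201), Fdft1 (0.0293) and Srebf2 (0.0213) were called as well.

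**Figure D5:**
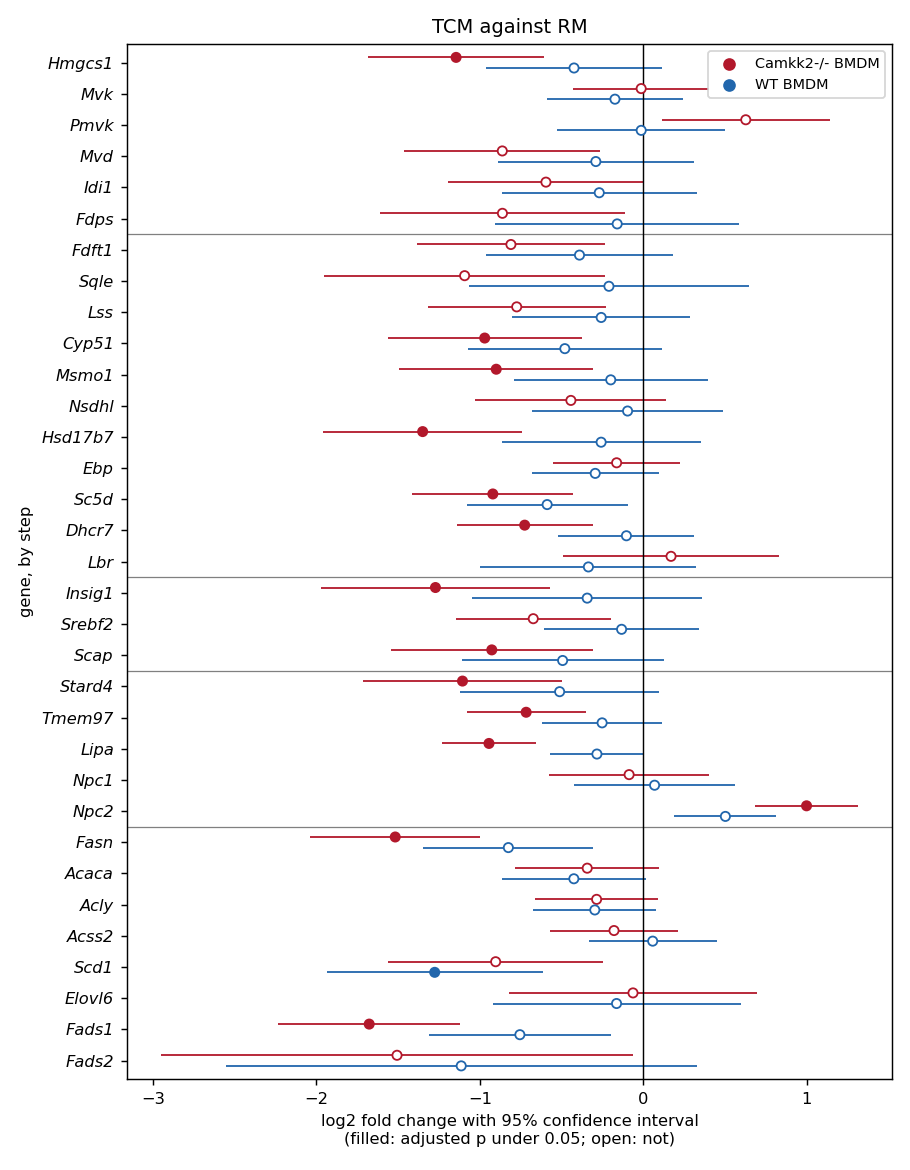
Log2 fold change of TCM over RM with its 95% confidence interval, for each of the 33 genes by step, in Camkk2-/- BMDM (red) and in WT BMDM (blue); filled points had an adjusted p under 0.05. In Camkk2-/- BMDM 13 genes were called lower and 1 higher, and in WT BMDM 1 was called lower.

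In WT BMDM, 1 gene was lower and 0 were higher in TCM than in RM (at an unadjusted p under 0.05, 4 lower and 1 higher). Of all 19505 genes, 0.697% were called lower and 2.21% higher, and at an unadjusted p under 0.05, 996 were lower and 1764 higher. Of the neutrophil and monocyte genes, 6 of 11 and 2 of 3 were called higher, and their part was not tested. The gene was Scd1, whose product makes monounsaturated fatty acids, at 11.73, 10.74, 10.09 and 10.47 in WT TCM-BMDM, against 12.26, 12.01, 11.85 and 12.01 in WT RM-BMDM. The RM arrays were tightly grouped and all higher, and TCM replicate 1 came close to them (−1.28, SE 0.32, adjusted p = 0.0303). The call was lost without WT TCM replicate 2, 3 or 4 or WT RM replicate 1, 2 or 4 (adjusted p of 0.0646 to 0.0965). Scd1 has close relatives in the mouse, and none of the sources used here says whether its probe set tells them apart. In Camkk2-/- BMDM, Scd1 was at 11.41, 11.05, 9.99 and 10.70 in TCM, against 12.16, 11.43, 11.14 and 12.03 in RM, with overlap (−0.90, adjusted p = 0.0729).
Although few genes were called, 30 of the 33 values in WT BMDM were below 0, including all 17 mevalonate and sterol genes, and the median was −0.28, against 0.04 over all genes. In 2 genes (6.06%), Lipa and Scd1, every TCM array was lower than every RM array, against 2.24% of all genes. The largest values without a call were −1.11 (adjusted p = 0.52) for Fads2 and −0.83 (adjusted p = 0.0875) for Fasn, which without WT TCM replicate 1 was called (adjusted p = 0.0211). Npc2 was higher in every TCM array (0.50, adjusted p = 0.0827), and Lipa gave −0.28 (adjusted p = 0.356).
Other genes that were called in Camkk2-/- BMDM overlapped between TCM and RM in WT BMDM. The WT RM arrays of Fasn were at 8.66, 8.09, 8.11 and 7.81, and WT TCM replicate 1, given above, lay within their range. Fads1 was at 12.21, 11.14, 10.80 and 11.23 in WT TCM-BMDM, against 12.58, 11.51, 12.17 and 12.14 in WT RM-BMDM (−0.75, adjusted p = 0.166). TCM replicate 1 was again the highest TCM array, above RM replicates 2, 3 and 4, and without it Fads1 was called (adjusted p = 0.0192). Insig1 was at 12.34, 11.74, 11.21 and 11.11 in WT TCM-BMDM, against 12.73, 11.45, 12.05 and 11.53 in WT RM-BMDM (−0.34, adjusted p = 0.739). Scap was at 10.54, 9.32, 8.95 and 9.94 in WT TCM-BMDM, against 10.35, 9.61, 10.59 and 10.18 in WT RM-BMDM (−0.49, adjusted p = 0.498). For both regulators TCM replicate 1 was the highest TCM array and RM replicate 2 the lowest RM array.
Sc5d was at 12.79, 12.73, 11.96 and 12.22 in WT TCM-BMDM, against 13.52, 12.66, 13.13 and 12.74 in WT RM-BMDM (−0.59, adjusted p = 0.242). TCM replicates 1 and 2 overlapped the RM arrays. Dhcr7 was at 9.49, 8.69, 8.87 and 8.72 in WT TCM-BMDM, against 9.20, 8.63, 9.41 and 8.95 in WT RM-BMDM (−0.10, adjusted p = 0.894), and its TCM replicate 1 was above every RM array. Stard4 was at 9.47, 9.44, 9.72 and 8.66 in WT TCM-BMDM, against 10.44, 9.37, 9.83 and 9.69 in WT RM-BMDM (−0.51, adjusted p = 0.468). Tmem97 was at 10.52, 10.25, 10.36 and 10.03 in WT TCM-BMDM, against 10.59, 10.33, 10.76 and 10.49 in WT RM-BMDM (−0.25, adjusted p = 0.585). For these last 2 genes TCM replicate 4 was the lowest of the 8 WT arrays.

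Whether the response to TCM differed between genotypes was tested by the interaction term, the log2 fold change of TCM in Camkk2-/- BMDM minus that in WT BMDM. At an unadjusted p under 0.05 in limma, 4 of the 33 genes were lower and 1 higher, against 914 lower and 680 higher of all 19505. None of the 33 genes was called (0 lower and 0 higher), against 0.0923% of all genes lower and 0.0513% higher. The counts of 14 calls in Camkk2-/- BMDM and 1 in WT BMDM are thus not shown to differ for any single gene. The median was −0.43, against −0.03 over all genes, and 24 of 33 values were below 0. Lipa had the smallest adjusted p, with −0.66 (SE 0.19, adjusted p = 0.259). Hsd17b7 (−1.09, adjusted p = 0.452, interval −1.95 to −0.23) and Insig1 (−0.93, adjusted p = 0.643, interval −1.92 to 0.06) had the largest values. Npc2, at 0.50, had an interval of 0.05 to 0.94. Of the marker genes given above, Itgax was called lower (−2.28, adjusted p = 0.0255), and its part was not tested.

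A further 22 measured genes of lipid synthesis and sterol handling, from a list of 27, were set beside these. In TCM, 3 were lower and 0 higher in Camkk2-/- than in WT BMDM (6 lower and 0 higher at an unadjusted p under 0.05). Of all 19505 genes, 1.79% were called lower and 2.7% higher (1494 and 1482 genes at an unadjusted p under 0.05). Elovl5, an elongase of polyunsaturated fatty acids, was at 12.88, 12.98, 12.92 and 13.06 in Camkk2-/- TCM-BMDM, against 14.53, 14.02, 13.71 and 14.21 in WT TCM-BMDM, with the Camkk2-/- arrays tightly grouped and lower (−1.16, SE 0.18, adjusted p = 0.000463). Aacs, which activates acetoacetate for lipid synthesis, was at 7.07, 6.79, 6.49 and 6.15 in Camkk2-/- TCM-BMDM, against 7.72, 8.02, 7.68 and 7.32 in WT TCM-BMDM, also without overlap (−1.06, SE 0.24, adjusted p = 0.011). Its Camkk2-/- TCM mean of 6.62 was below 6.82, the highest mean of a background probe set, so these signals are near the floor. Mid1ip1, an activator of acetyl-CoA carboxylase, gave −0.73 (SE 0.20, adjusted p = 0.0413). The calls of Elovl5 and Aacs held without any single array, and that of Mid1ip1 was lost without any 1 of 9 arrays (Camkk2-/- TCM replicates 1 to 4, WT TCM replicates 1, 3 and 4, and Camkk2-/- RM replicates 3 and 4).
Between TCM and RM in Camkk2-/- BMDM, 5.37% of all genes were called lower and 6.13% higher (2299 and 2380 genes at an unadjusted p under 0.05). Of the 22, 6 were lower and 0 higher in TCM than in RM (11 and 2 at an unadjusted p under 0.05). They were Elovl5 (−0.98), the phosphatidate phosphatase Lpin1 (−1.74), the acyltransferase Agpat3 (−0.76), the sterol hydroxylase Cyp27a1 (−1.89), the cholesterol exporter Abca1 (−0.84) and the NADPH-producing malic enzyme Me1. Me1 was at 4.84, 4.36, 3.74 and 3.99 in Camkk2-/- TCM-BMDM, against 5.11, 5.24, 5.41 and 5.03 in Camkk2-/- RM-BMDM, so that all TCM arrays, 3 of the 4 RM arrays and both means lay below background, and no fold is given. In WT BMDM, Lpin1 (−0.89, adjusted p = 0.0494) and Cyp27a1 (−1.01, adjusted p = 0.0176) were lower and 0 were higher (4 lower and 1 higher at an unadjusted p under 0.05). There, 0.697% of all genes were called lower and 2.21% higher (996 and 1764 genes at an unadjusted p under 0.05). Between genotypes in RM, 0 of the 22 were called in either direction (2 lower and 2 higher at an unadjusted p under 0.05), and the interaction gave 0 as well (4 and 0). Of all genes, 0.292% were called lower and 0.446% higher in RM (660 and 941 genes at an unadjusted p under 0.05). For the interaction these were 0.0923% and 0.0513% (914 and 680 genes). Abca1, which is induced by oxysterols through LXR, was at 14.63, 14.52, 14.50 and 14.86 in Camkk2-/- TCM-BMDM, against 15.39, 15.41, 15.55 and 15.53 in Camkk2-/- RM-BMDM, with no overlap. In WT BMDM it ranged over 14.33 to 15.11 in TCM and 14.40 to 15.19 in RM, with means of 14.81 and 14.79. Every Camkk2-/- RM array of Abca1 was thus above every WT array, without a call between genotypes in RM. The calls of Elovl5, Lpin1, Cyp27a1 and Abca1 in Camkk2-/- BMDM held without any single array. Those of Agpat3 (4 arrays, namely Camkk2-/- TCM replicates 1 and 2 and Camkk2-/- RM replicates 2 and 3), Me1 (any 1 of 10 arrays, all but Camkk2-/- TCM replicate 1, WT TCM replicates 1, 3 and 4 and WT RM replicates 1 and 4) and, in WT BMDM, Cyp27a1 (3 arrays, namely WT TCM replicate 2 and WT RM replicates 1 and 4) and Lpin1 (14 arrays, all but Camkk2-/- TCM replicate 4 and WT RM replicate 2) did not.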

How the data were processed

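RNA of 16 BMDM cultures was hybridized to mouse Affymetrix GeneChip arrays. Each deposited value is the log2 signal of a probe set in 1 array, for which Affymetrix Expression Console is named in the submitters' processing notes. Its version, the normalization and the genome build were not given in the sources used here. In the methods, Transcriptome Analysis Console is named for the authors' own lists, which were not used. Of 28846 probe sets, 6640 controls and 2634 without a symbol were left out. Values were used as deposited, with no filter on low signal. limma 3.58.1 (R 4.3.3) fitted 4 group means to all 16 arrays (lmFit, eBayes, 12 residual degrees of freedom), and contrasts gave 4 comparisons and the interaction of genotype and medium. P-values measure the spread between the 4 cultures of a group. Every array mean over a gene set is a description with no test.

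The genes and lists were chosen with earlier results of these data known. By rule, values in every array are given for genes called in any comparison, and of the others the 2 with the largest fold change in each are named. Other pathway genes are named where called. The code was tested on simulated data. Alternatives were each array left out, a fit to 8 arrays, trend and robust variances, array weights, repeated quantile normalization, centring, filters on low genes, probe set means, a replicate block, a term for replicates 1 and 2 against 3 and 4, and other thresholds. The omission of WT TCM replicates 1 and 3 together was added after seeing the data. Promoters were searched with Python 3.11.15 on RefSeq sequences of GRCm38.p6.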

Additional observations from a re-analysis of the deposited data

Results flagged for a closer look

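In 6 of 132 groups of 4 arrays, 1 array stood apart from the other 3 of its group, with a gap to the nearest that took up most of the group's range. Chance alone gives about 1 in 20 groups. In TCM they were Stard4 in Camkk2-/- replicate 3, at 7.66 against 8.62 to 8.67 in the others, Mvk in WT replicate 1, at 6.62 against 6.16 to 6.23, and Pmvk in WT replicate 4, at 8.35 against 8.92 to 9.03. In RM they were Sc5d in Camkk2-/- replicate 3, at 12.00 against 12.73 to 12.87, Mvd in WT replicate 1, at 9.61 against 8.72 to 8.85, and Acaca in WT replicate 2, at 7.95 against 8.82 to 8.96.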

How the results depend on the processing

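No fold change of a called gene changed sign under any alternative. The number of the 33 genes called between Camkk2-/- and WT TCM-BMDM, 7 in the fit as given, ranged over 4 to 11 when 1 array was left out (4 without Camkk2-/- TCM replicate 3 or without WT TCM replicate 1, and 11 without WT TCM replicate 4). It was 11 after repeated quantile normalization and with genes above background alone, 13 with a term for replicates 1 and 2 against 3 and 4, 3 at an adjusted p under 0.01, and 1 without WT TCM replicates 1 and 3. Between genotypes in RM, and for the interaction, it stayed at 0 under every alternative run. For TCM against RM in Camkk2-/- BMDM it was 14 and ranged over 7 to 19 without 1 array (7 without Camkk2-/- TCM replicate 3 and 8 without Camkk2-/- RM replicate 2), 23 with the term for replicates 1 and 2 against 3 and 4, and 7 at an adjusted p under 0.01. For TCM against RM in WT BMDM it was 1 and ranged over 0 to 3 without 1 array (3 without WT TCM replicate 1, and 0 without WT TCM replicate 2, 3 or 4 or WT RM replicate 1, 2 or 4). It was 0 at an adjusted p under 0.01, and 2 with trend, trend and robust variances, array weights, quantile normalization, centring, the lowest 40% of genes dropped, genes above background, the term for replicates 1 and 2 against 3 and 4, or without WT TCM replicates 1 and 3. The cause of these shifts was not tested. The share of all genes called under each alternative, the replicate block below included, is not given here. Whether the shifts are particular to the 33 genes is therefore not shown.

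With the replicate number as a replicate block, 13 genes were called between genotypes in TCM, 0 in RM, 21 for TCM against RM in Camkk2-/- BMDM and 2 in WT BMDM, and 0 for the interaction. Arrays with one number share only that number as far as the labels say, and their deviations from the group means correlated at −0.167 to 0.23. With 4 arrays a group, changes that the intervals do not exclude may have gone uncalled, and the sources used here do not state the normalization between arrays.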
